A study of Mus musculus with 4 samples.

Results

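The bone morphogenetic protein (BMP) and transforming growth factor beta (TGF-beta) signalling genes were read in newborn mouse ureter and in whole newborn mice. The set was defined by gene name as every probe set annotated to exactly 1 gene symbol out of 42 listed ligands, receptors, antagonists, Smads and targets. On the Affymetrix MOE430 arrays, 90 of 45101 probe sets met this rule and covered 41 of the 18194 genes with such a probe set. Bmp3 had no such probe set and is not analysed here. After the dimmest probe sets were left out, 72 probe sets of 39 genes were tested; Smad9 and Nog were left out at this step. The ureter group held 3 arrays, each of ureters dissected from kidney and bladder of male FVB/N mice at postnatal day 1 (Theiler stage 27) carrying the SMGA/EGFP transgene, which is named after smooth muscle gamma-actin (Actg2). The reference group held 1 array of pooled whole FVB/N mice of both sexes at postnatal day 1 without the transgene, and RNA of every sample went through 2 rounds of amplification. Tissue, transgene, sex and pooling therefore differ together and cannot be told apart. The ureter samples were labelled as not pooled. Whether each ureter array stands for its own animal is not stated; the p-values reflect how much these 3 arrays scatter, and that scatter may be technical only.

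Ligands of this family bind pairs of type I and type II receptor kinases, which phosphorylate receptor Smads. BMP receptors act mainly on Smad1, Smad5 and Smad9, and TGF-beta and activin receptors on Smad2 and Smad3; all of these partner with Smad4 to regulate genes in the nucleus. Secreted antagonists trap the ligands, latent TGF-beta binding proteins hold TGF-beta or build microfibrils in the matrix, and Smad6 and Smad7 are feedback inhibitors that the pathway itself switches on. In the developing ureter Bmp4 is made by the mesenchyme around the epithelial tube and is needed for smooth muscle to form there.

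Median intensities were 154.2, 259 and 186.5 in ureters 1, 2 and 3 and 332.3 in the reference, although the deposited scaling gave all arrays the same trimmed mean, and the arrays were therefore quantile normalized. The tissue label was borne out by urothelial and smooth muscle markers: 8 of 10 and 7 of 8 passed the test as higher in the ureters and none passed as lower. The remaining smooth muscle marker, Des, read 979, 1114 and 1014 against 2715 in the pool (-1.35, adjusted p = 0.0900). Of 7 ureteric mesenchyme and fibroblast markers, only 2 passed as higher (Tbx18 and Dcn) and none as lower. The ureters differed in markers of neighbouring tissue. The summed intensity of the nephron and collecting duct markers, 10 of 12 listed, was 1234 in ureter 1, 12740.0 in ureter 2 and 6230.0 in ureter 3, against 9626 in the reference. That of 6 skeletal muscle genes was 2641, 10540.0 and 3096, against 277200.0 in the reference. Pearson correlations over all tested probe sets were 0.905 to 0.937 between ureters and 0.742 to 0.769 between a ureter and the reference. In whole-tissue RNA, more cells of a type and more RNA per cell cannot be told apart.

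Of the 39 genes, each read at its brightest probe set, 4 were higher in the ureters than in the newborn pool (Smad6, Ltbp1, Id1 and Tgfbr1), 1 was lower (Ltbp4), and 34 did not pass limma's adjusted p at 0.05. Over all 13721 genes tested, 2.94% were called higher and 4.77% lower. On the quantile-normalized scale all 3 ureters lay above the reference for 27 members and below it for 4, against 39.9% and 30.7% of all genes. The mean difference was above 0 for 32 of 39 members and for 55.1% of all genes. The median log2 difference, ureter minus reference, was 0.53 for the members and 0.10 for all genes. Scaling moved both medians, to 0.48 and -0.05 with the intensities as deposited and to 1.21 and 0.68 with median-centred arrays, and the members' median exceeded that of all genes by 0.44, 0.52 and 0.52 in the 3 scalings. At an unadjusted p under 0.05, 13 members were higher and 2 lower, against 13.8% and 12.5% of all genes. No member passed when ureter 3 was left out, where limma's adjusted p of the 5 genes was 0.0965 to 0.184, and 9 were then higher and 2 lower at an unadjusted p under 0.05 (7.89% and 9.97% of all genes). None passed without the intensity trend either (0.0516 to 0.116 for the 5 genes), with 11 higher and 2 lower at an unadjusted p under 0.05 (11.2% and 11.5% of all genes). Calls fell over all genes too, from 404 higher and 654 lower of 13721. Without ureter 3, 32 of 13696 genes were called higher and 216 lower, and without the trend 122 and 440 of 13721.

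**Figure D1:**
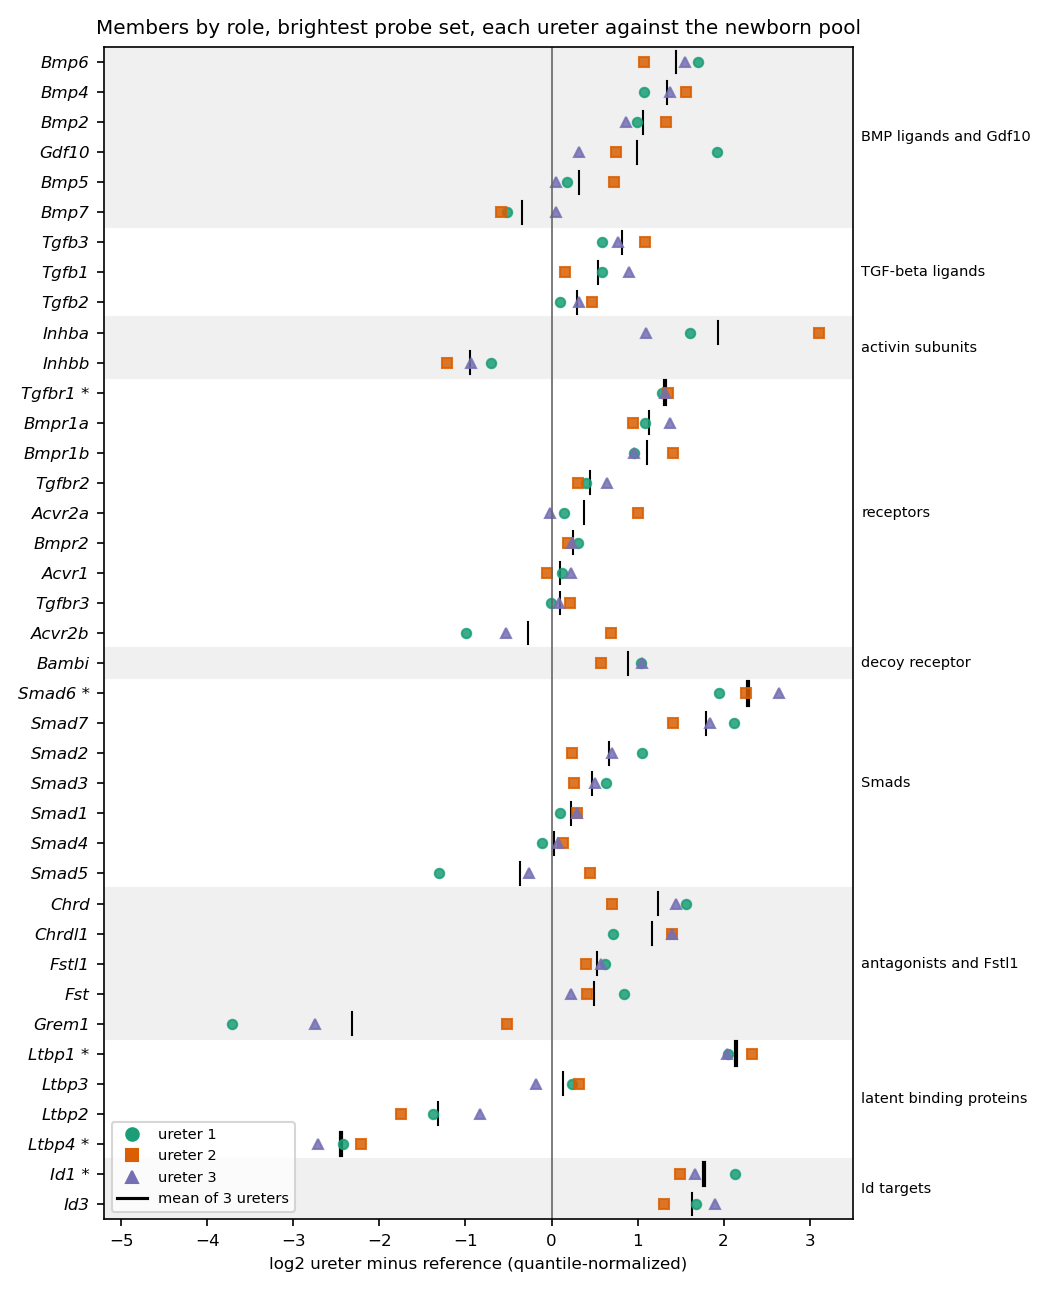
Log2 difference from the newborn pool (x axis, quantile-normalized values) of each ureter (coloured points) and of the mean of the 3 ureters (black bars) for 39 genes, grouped by role (y axis), with asterisks at the 5 genes past the adjusted p of 0.05. Most points lie to the right of 0; Ltbp4, Ltbp2, Inhbb and Grem1 have all 3 ureters to the left.

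Among the BMP ligands, all 3 ureters lay above the pool for Bmp2, Bmp4, Bmp5, Bmp6 and Gdf10, but none passed the test at the brightest probe set. This held for the intensities and on the quantile-normalized scale, where 39.9% of all genes had all 3 ureters above the pool. Of the 6 BMP ligand genes tested, 3 were higher at an unadjusted p under 0.05, where 13.8% of all genes were. Bmp4, the mesenchymal ligand of the ureter, had intensities of 1214, 1816 and 1604 in ureters 1, 2 and 3 and 761.8 in the pool. The groups did not overlap, and the difference of 1.34 ± 0.41 (log2, standard error of the limma fit, n = 3 ureters) did not pass (adjusted p = 0.115). Bmp2, a close relative of Bmp4, gave 2478, 3019.6 and 2254 against 1341 (1.06 ± 0.38, adjusted p = 0.160). Bmp6 gave 631.5, 509.3 and 606.6 against 315.8 (1.44 ± 0.48, adjusted p = 0.140), a difference of 0.85 with the deposited scaling. Both had every ureter above the pool.

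Bmp5, another BMP ligand, depended on the probe set. Its brightest probe set gave 8298, 11285 and 7382 in the ureters and 6529 in the pool, a difference of 0.32 ± 0.34 that did not pass (adjusted p = 0.628). A second probe set gave 9595, 8027 and 8062 against 1917 and was higher by 2.16 ± 0.29 (adjusted p = 0.0160), a call that ended without ureter 3 (0.0889) and without the trend (0.0529). The dimmest probe set differed by 1.32 ± 0.61 (adjusted p = 0.251). All 3 lay above 0. Between the first and the second, the pool read 6529 and then 1917, and the ureters lay between 7382 and 11285 at both. When a gene was counted if any of its probe sets passed, a choice made after the data were seen, 5 members were higher and 1 lower, against 4.23% and 5.17% of all genes.

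Gdf10, a ligand related to Bmp3, had the widest ureter spread of the BMP ligands at 17018, 7239 and 5612 against 4142 (1.00 ± 0.61, adjusted p = 0.377), with ureter 1 far above the others. Bmp7, a ligand that nephron progenitors need, gave 1405, 1398 and 2208 against 2145 in the pool. The ureters overlapped the pool, and the difference of -0.35 ± 0.42 (adjusted p = 0.673) turned to 0.34 with median-centred arrays.

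The TGF-beta ligand genes did not pass. Tgfb3 gave 3668, 4912 and 4199 against 2372 (0.81 ± 0.35, adjusted p = 0.228) and Tgfb2 2265, 2859 and 2680.5 against 2143 (0.30 ± 0.36, adjusted p = 0.672). Tgfb1 was dim at 146.9, 183.3 and 229.9 against 212.9. Its difference of 0.55 ± 0.62 after quantile normalization became -0.20 with the deposited scaling, so it has no settled direction. None of the 3 had an unadjusted p under 0.05.

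The activin subunit genes, whose products form activins and inhibins, lay on opposite sides of the pool. Inhba gave 277.6, 1103 and 215.3 against 173.2, with ureter 2 far above the others. The pool's value was at background, as judged from unspiked bacterial control probe sets, so the mean of the ureters has only a lower bound against it. That bound was 3.55-fold after quantile normalization, 2.10-fold with the deposited scaling and 2.41-fold without ureter 2, and Inhba did not pass (adjusted p = 0.225). Inhbb gave 1242, 945.9 and 1097 against 2193, all ureters below the pool (-0.95 ± 0.41, adjusted p = 0.223). Neither had an unadjusted p under 0.05.

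The latent TGF-beta binding proteins split. Ltbp1, which anchors latent TGF-beta in the matrix, had intensities of 7157, 8156 and 6902 in the ureters and 1722 in the pool. The 3 ureters lay close together and far from the pool, and Ltbp1 was higher by 2.14 ± 0.31 (4.41-fold, adjusted p = 0.0197). Ltbp4, which is needed for elastic fibres, showed the reverse at 659.9, 914.1 and 571.6 against 3989.8, and was lower by -2.45 ± 0.41 (5.46-fold, adjusted p = 0.0269). Ltbp4 did not pass with median-centred arrays (-1.76, adjusted p = 0.129). Both lost their calls without ureter 3, with adjusted p = 0.0965 for Ltbp1 and 0.118 for Ltbp4.

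Ltbp2, a microfibril protein that does not bind latent TGF-beta, gave 1722, 1364 and 2639.6 against 4371 (-1.32 ± 0.45, adjusted p = 0.149), all ureters below the pool. Ltbp3 was bright in both groups, 19733, 21137 and 14756 against 15692, and the ureters overlapped the pool (0.13 ± 0.26). A dimmer Ltbp3 probe set lay at -0.45, so the family held 1 gene called higher, 1 called lower and 2 that did not pass.

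Of 9 receptor genes, Tgfbr1 was higher and 8 did not pass. Tgfbr1, the type I receptor of TGF-beta, had intensities of 13689, 13639.8 and 13613 in the ureters and 5039 in the pool. The ureters were nearly equal, with a standard deviation (SD) of 0.03 (log2, n = 3) against a median of 0.32 over all genes, and the difference was 1.32 ± 0.23 (2.50-fold, adjusted p = 0.0309). Its other probe sets were less even. The next brightest gave 2569, 9437 and 2487 against 3316 (0.18 ± 0.80), and the dimmest gave 75.5, 1814 and 233.4 against 109.4, where the pool was at background. Ureter 2 stood far above the others there, and the lower bound of the fold was 3.02 with it and 1.45 without it. With the probe sets averaged the adjusted p of Tgfbr1 was 0.331, and without ureter 3 it was 0.158.

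Bmpr1a, a type I BMP receptor, was next. Its brightest probe set gave 19541, 17684 and 23295 against 8488 (1.14 ± 0.25), with all ureters above the pool, and just missed the threshold (adjusted p = 0.0527). It passed with the deposited scaling (0.0490), with median-centred arrays (0.0442), with an offset of 50 (0.0458) and without ureter 2 (0.0448), whereas with its probe sets averaged the difference was 0.36 (adjusted p = 0.546). Other probe sets of Bmpr1a lay at 0.91, 0.66 and 1.41. A further one lay on the opposite side at 776, 2394 and 917.3 against 6082 (-2.33 ± 0.63, adjusted p = 0.0905), so the direction of Bmpr1a is not the same at every probe set.

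The type II receptors were close to the pool. Bmpr2 gave 36322, 39872 and 36169.8 against 34708 (0.24 ± 0.16), and Tgfbr2 gave 24711, 24523 and 29105 against 18698 (0.45 ± 0.21, adjusted p = 0.258). The activin receptors Acvr2a (0.38 ± 0.50) and Acvr2b (-0.28 ± 0.69) overlapped the pool. So did Acvr1, a type I receptor used by BMPs (0.10 ± 0.25), and Tgfbr3, the co-receptor betaglycan (0.10 ± 0.19). Bmpr1b, the other type I BMP receptor, was dim at 268.7, 542.3 and 313 against 268.8 (1.11 ± 0.50, adjusted p = 0.246), a difference of 0.40 with the deposited scaling. Bambi, a decoy receptor without a kinase domain, gave 4847, 3289 and 4873 against 2276, all ureters above (0.89 ± 0.36, adjusted p = 0.201).

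Among the Smads, the 2 inhibitory members had the largest differences. Smad6, which blocks BMP signalling, had intensities of 626.8, 946.1 and 1178 in the ureters and 267.3 in the pool. The pool's value was dim, with background at 187.7 on that array. All ureters lay above the pool, and Smad6 was higher by 2.28 ± 0.47 (4.87-fold, adjusted p = 0.0461). That call ended with the deposited scaling (1.69, adjusted p = 0.145), without the filter (0.0816), without ureter 2 (0.0547) and without ureter 3 (0.184). Smad7, which blocks both branches, gave 814.1, 592.9 and 701.9 against 293.4. Its difference of 1.79 ± 0.48 did not pass (adjusted p = 0.0879), and a dimmer probe set, read against a pool at background, did not pass (adjusted p = 0.136), with a lower bound of 2.41-fold and of 1.48-fold with the deposited scaling.

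The receptor Smads and Smad4 did not pass. Smad2 gave 8242, 4365 and 6285 against 3596 (0.67 ± 0.39), Smad3 11163, 8096 and 10003 against 6433 (0.47 ± 0.28) and Smad1 25635, 32119.9 and 29406.5 against 24806 (0.23 ± 0.18). Smad4, shared by both branches, gave 25679, 33240.0 and 29229 against 29918, with the pool inside the range of the ureters (0.03 ± 0.19, adjusted p = 0.938). Smad5 ranged from 4463 in ureter 1 to 14590.0 in ureter 2 around 9935 in the pool (-0.37 ± 0.63), while its other tested probe sets lay at 0.40 and 0.55. Smad9 was at background on every array.

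None of the 5 tested antagonists passed, and 2 were higher at an unadjusted p under 0.05 (13.8% of all genes). Chrd, which encodes chordin, gave 409.1, 307.1 and 425.5 against 246.96 (1.24 ± 0.57, adjusted p = 0.251), a difference of 0.59 with the deposited scaling. Its relative Chrdl1 gave 482.3, 989.3 and 929.8 against 487.8 (1.17 ± 0.48, adjusted p = 0.207; 1.80 without ureter 2), with a second probe set at 1.63 ± 0.45 (adjusted p = 0.0938). Fst, the activin-binding follistatin, gave 5564, 3848 and 3569 against 2882 (0.49 ± 0.37). Fstl1, a secreted follistatin-like protein, was among the brightest at 50136, 57674 and 51256 against 43199.9 (0.53 ± 0.15, adjusted p = 0.101).

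Grem1, which encodes the BMP antagonist gremlin, was the member with the widest spread between ureters. Intensities were 35.5 in ureter 1, 674.4 in ureter 2 and 97.1 in ureter 3, against 1069 in the pool, and those of ureters 1 and 3 were at background. All 3 lay below the pool (-2.33 ± 1.19, adjusted p = 0.300), but the ureters spanned more than a log unit (SD 1.64), wider than 98.5% of all genes. Without ureter 2 both remaining values were at background, so the pool was at least 7.87-fold above them (adjusted p = 0.0535), and without ureter 1 the difference was -1.57 (adjusted p = 0.365). Nog, which encodes noggin, was at background on every array.

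The Id genes, which encode inhibitors of basic helix-loop-helix factors and are standard BMP-Smad targets, had every ureter above the pool at their brightest probe sets. Id1 gave 7496, 4446 and 5324 against 1689 and was higher by 1.77 ± 0.37 (3.40-fold, adjusted p = 0.0490). Id3 gave 5089.6, 3679 and 5847 against 1606, and its difference of 1.63 ± 0.37 just missed the threshold (adjusted p = 0.0587). Of the family's remaining members, taken from the list of other pathway genes, Id2 gave 19828, 18991 and 22952 against 4702 (2.04 ± 0.24, adjusted p = 0.0129). Id4 gave 22308, 29195 and 23869.6 against 7277 (1.66 ± 0.22, adjusted p = 0.0160), and a second probe set of Id4 was also called higher (1.92, adjusted p = 0.0152). A dimmer tested probe set of each did not pass, at 1.03 (adjusted p = 0.272) for Id2 and 1.09 (0.315) for Id4. At the brightest probe sets, no ureter value of the 4 Id genes overlapped the pool. On the quantile-normalized scale, all 3 ureters lay above the pool for 39.9% of all genes.

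The Id1 call was the least stable of the 5. It ended with the deposited scaling (0.0589), with median-centred arrays (0.0689), with an offset of 1 (0.0540), without the filter (0.0665), without ureter 1 (0.0656) and without ureter 3 (0.182), while its difference stayed between 1.54 and 2.46 in all 10 alternatives. Id3 passed without ureter 2 (0.0406) and with probe sets averaged (0.0375). Id2 and Id4 lost their calls without ureter 3 (0.0701 and 0.0875) and without the trend (0.0619 and 0.0868).

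**Figure D2:**
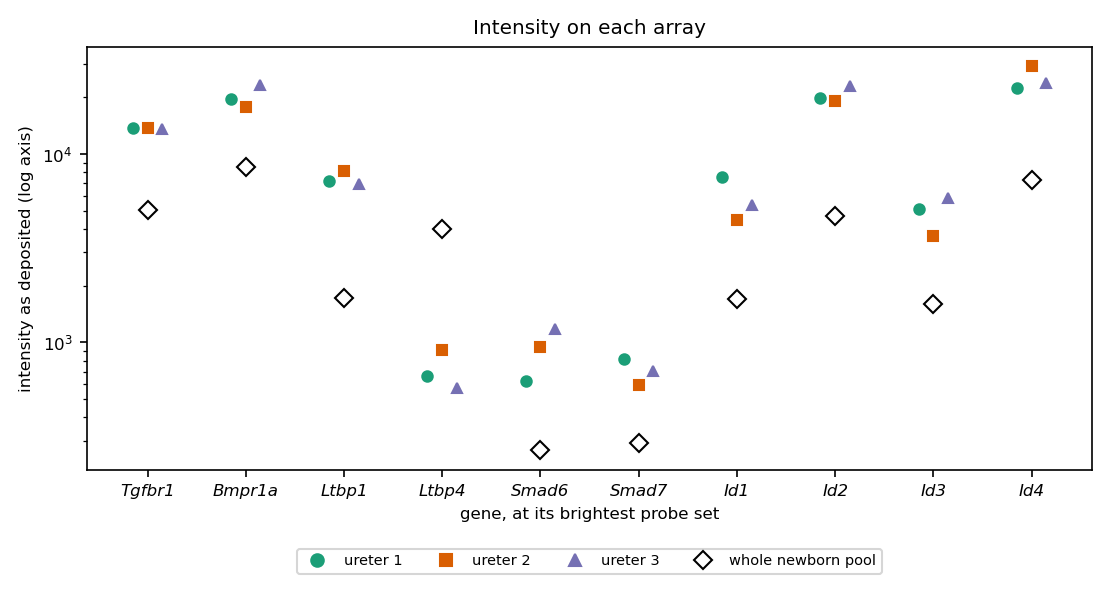
Deposited intensity (y axis, log scale) of each ureter array (coloured points) and of the whole newborn pool (open diamonds) for 10 receptor, matrix, inhibitory Smad and Id genes (x axis), each at its brightest probe set. The pool lies below all 3 ureters for 9 of the genes and above them for Ltbp4, where it reads 3989.8 against 571.6 to 914.1.

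The 250 bases before the start site of Smad6 and of the Id genes with a window in the RefSeq table (build GRCm38.p6) are shown as examples of Smad-regulated genes whose 3 ureters all lay above the pool at the brightest probe set. Other such genes on the list, among them Msx2 and Tgfbi, met the same description and are not shown. The examples do not stand for all targets: Hey1 (-0.80) and Pmepa1 (-0.40) had all 3 ureters below the pool, and neither passed. Of the 57 other pathway genes tested, all 3 ureters lay above the pool for 20 and below it for 18, against 39.9% and 30.7% of all genes. Each is written 5′ to 3′ on the gene's own strand, with capitals marking GGCGCC, a GC-rich sequence that BMP Smads can bind.
Id2, chr12:25096093-25096342, minus strand: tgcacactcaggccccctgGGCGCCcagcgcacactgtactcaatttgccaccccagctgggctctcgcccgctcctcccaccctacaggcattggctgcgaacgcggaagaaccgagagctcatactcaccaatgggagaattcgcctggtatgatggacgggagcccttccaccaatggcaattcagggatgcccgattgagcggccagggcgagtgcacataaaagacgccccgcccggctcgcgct
Id3, chr4:136143572-136143821, plus strand: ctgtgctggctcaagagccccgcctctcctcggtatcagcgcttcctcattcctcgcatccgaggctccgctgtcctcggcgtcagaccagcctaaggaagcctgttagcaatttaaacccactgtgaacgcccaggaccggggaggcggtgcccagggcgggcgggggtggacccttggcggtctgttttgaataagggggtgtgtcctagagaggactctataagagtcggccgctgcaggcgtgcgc
Id4, chr13:48260866-48261115, plus strand: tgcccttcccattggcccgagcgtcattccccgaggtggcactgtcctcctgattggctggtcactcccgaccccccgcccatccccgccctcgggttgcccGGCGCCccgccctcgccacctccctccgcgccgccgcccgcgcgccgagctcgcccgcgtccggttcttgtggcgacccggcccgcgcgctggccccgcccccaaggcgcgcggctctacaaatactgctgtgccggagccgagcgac
Smad6, chr9:64022060-64022309, minus strand: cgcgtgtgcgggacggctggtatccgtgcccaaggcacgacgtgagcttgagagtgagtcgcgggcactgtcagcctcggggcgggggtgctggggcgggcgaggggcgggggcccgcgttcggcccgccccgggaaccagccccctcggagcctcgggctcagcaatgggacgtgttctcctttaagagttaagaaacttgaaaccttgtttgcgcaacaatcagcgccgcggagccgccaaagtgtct
The motif reads the same on both strands. It begins 231 bases before the start in Id2 and 148 bases before it in Id4, and these letters are not in the windows of Id3 and Smad6. Of 32851 windows of this length in the table, 9.59% held GGCGCC and 0.167% held GTCTAGAC, the palindromic Smad-binding element, which reads the same on both strands too and shares no full match with the first motif. Of the members, 29 genes had 37 windows that were searched. GGCGCC was in 9 windows of 8 genes (24.3% of windows, some of which overlap one another), while 0 held GTCTAGAC. The other members were not searched, some of them left out because of where they lie in the genome. Smad2, Smad4 and Smad7 were among the members not searched, so the count of 0 says nothing about them. The searched windows of members had a median GC content of 66.4%, against 52.4% over all windows. The part of base composition in the count of GGCGCC, a GC-rich motif, was not tested. A match is a description of sequence and not evidence of binding in these samples.

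The rest of the pathway was read from a list of 84 further gene names, among them Hfe2 and Ctgf, older names of the listed Hjv and Ccn2. From the list 57 genes were tested: 6 were higher, 2 were lower and 49 did not pass, against 2.94% and 4.77% of all genes. The list's median difference was 0.10, the same as that of all genes to 2 decimals. Besides Id2 and Id4, the higher genes were 3 modulators of BMP ligands and Tgfb1i1. Bmper, which encodes a BMP-binding endothelial regulator, gave 8687, 8229.5 and 10306 against 2839 (1.60 ± 0.28, adjusted p = 0.0312). Twsg1, encoding twisted gastrulation, a partner of chordin, gave 17073, 10133 and 10903 against 3389 (1.78 ± 0.35, adjusted p = 0.0419), but 0.93 (adjusted p = 0.368) with its probe sets averaged. Crim1, a membrane protein with chordin-like repeats, was called higher than a pool at background (adjusted p = 0.0428), with a lower bound of 5.24-fold after quantile normalization and 3.31-fold with the deposited scaling, where it did not pass.

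Tgfb1i1, a TGF-beta-induced focal adhesion protein of smooth muscle, gave 3831, 3776 and 4908 against 1116 (2.05 ± 0.35, adjusted p = 0.0287). The lower genes were Hjv, the BMP co-receptor hemojuvelin of liver and skeletal muscle (38.7, 220.3 and 116.9 against 4921, adjusted p = 0.0157), and Fstl5, a follistatin-like gene (at least 35.8-fold lower, adjusted p = 0.0134). The genes with the smallest differences were Ccn2, a TGF-beta target (-0.03), Strap (0.06) and Acvr1c (0.07), although a dimmer probe set of Acvr1c, with every ureter at background, was called lower (at least 7.62-fold, adjusted p = 0.0433). That call ended with an offset of 1 (0.101) and without ureter 3 (0.105). Without ureter 3, Fstl5 kept its call (adjusted p = 0.0328), whereas Hjv (0.0611), Bmper (0.162), Twsg1 (0.134), Crim1 (0.134) and Tgfb1i1 (0.147) did not. Crim1 also lost its call without ureter 1 (0.0592), with the deposited scaling (0.145) and without the filter (0.0835), where Twsg1 lost its call as well (0.0673). Without the trend, Bmper (0.0916), Twsg1 (0.114), Crim1 (0.0639) and Tgfb1i1 (0.0636) did not pass.

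Probe sets of the same gene often gave different sizes. Of 22 members with more than 1 tested probe set, 15 had all of them on the same side of the pool and 7 on both sides (Acvr1, Bmp7, Bmpr1a, Bmpr2, Ltbp3, Smad5 and Tgfbr3). No member had probe sets called in opposite directions. Over probe sets, 5 of 72 were called higher and 1 lower, against 2.68% and 3.49% of all 27022. Tgfb2 shows the range: its 4 probe sets lay at 0.30, 0.34, 0.91 and 2.12, the last at 725.5, 4414 and 1496 against 536.2. For Tgfbr2, a dimmer probe set was read against a pool at background (adjusted p = 0.122), with a lower bound of 3.02-fold and of 1.80-fold with the deposited scaling, beside a difference of 0.45 ± 0.21 at the brightest. With probe sets averaged, the differences were 1.27 for Bmp5, 0.92 for Tgfb2 and 1.21 for Tgfbr2, and none passed (adjusted p = 0.0739, 0.355 and 0.0721).

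**Figure D3:**
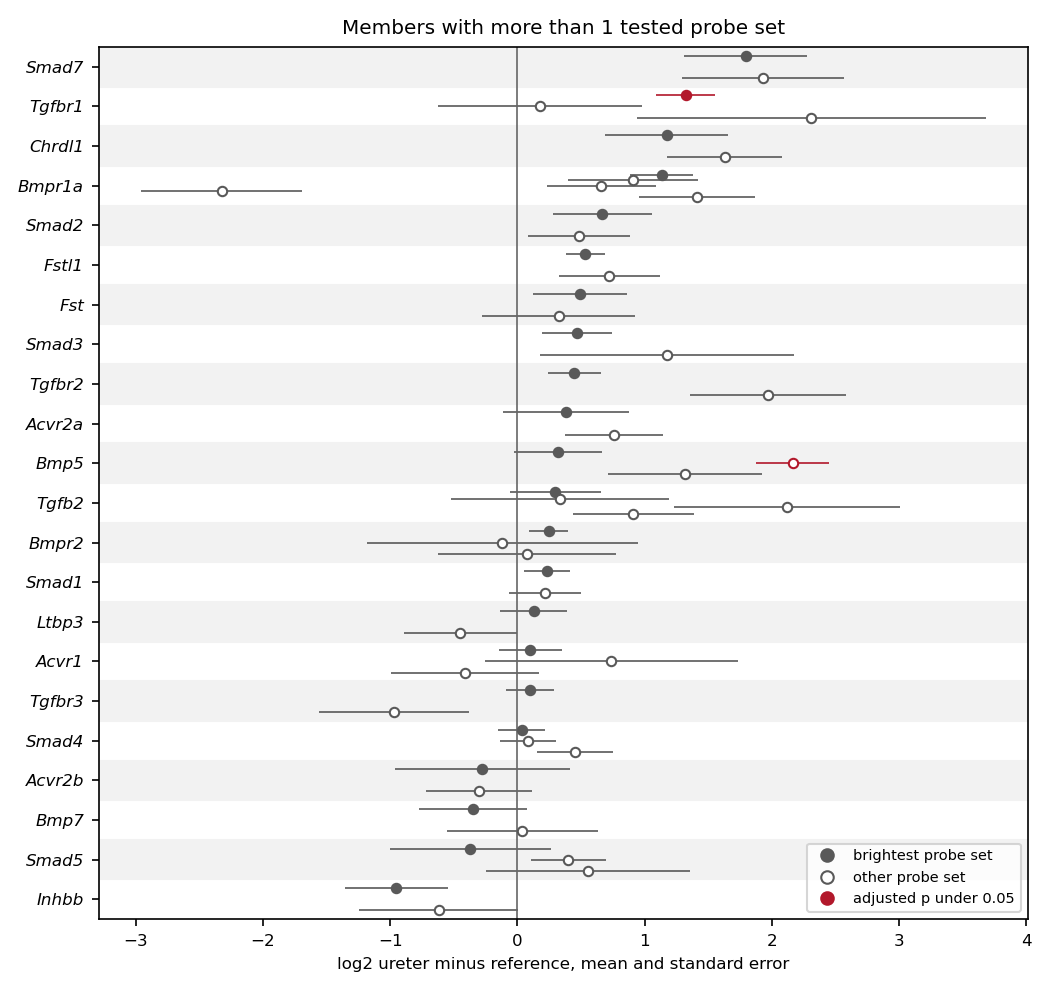
Log2 ureter minus reference (x axis; points are means of 3 ureters, bars the standard error of the limma fit) at every tested probe set of the 22 members with more than 1 (y axis), with filled points for the brightest probe set and red for an adjusted p under 0.05. Tgfbr1 is called at its brightest probe set and Bmp5 at another one, and Bmpr1a has 4 probe sets to the right of 0 and 1 at -2.33.

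Most members were as even between ureters as other genes: the median SD over the 3 ureters was 0.27 for the members and 0.32 for all genes. At a limit of 0.7, chosen after the values were seen, 16 of the 72 tested probe sets of members reached it, as did 5241 of all 27022 tested. The 16 probe sets belonged to 12 members, and ureter 2 was highest in 14 of the 16 (87.5%) and ureter 1 lowest in 13. Among all 5241 tested probe sets past that limit, ureter 2 was highest in 46.2% and ureter 1 lowest in 42.8%. A dimmer probe set of Acvr1, the type I receptor, gave 509.6, 4377 and 1879.9, whereas its brightest probe set gave 12041, 9955 and 12509.9. A dimmer probe set of Bmpr2 gave 51.2, 674.2 and 329.3, whereas its brightest probe set had an SD of 0.06.

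Only 5 of the 16 wide probe sets were the brightest of their gene. They belonged to Grem1, Inhba, Smad5, Acvr2b and Gdf10. By summed intensity, ureter 2 was also the ureter with the highest nephron and skeletal muscle markers, and ureter 1 the one with the lowest. Single markers differed, and Ckm and Slc34a1 were highest in ureter 3. Summed deposited intensities of smooth muscle markers had the same order (157000, 208400 and 180300 in ureters 1, 2 and 3). Their median log2 values after quantile normalization did not, at 14.26, 14.11 and 14.27. Urothelial markers had the opposite order by sum (197500, 127200 and 142300) and by normalized median (14.63, 13.69 and 13.87). The ratio of 5′ to 3′ signal of the actin control was 0.205 in ureter 1, 0.347 in ureter 2, 0.281 in ureter 3 and 0.306 in the reference. That of the Gapdh control went the other way, at 0.0601, 0.0462, 0.0477 and 0.0506. The part of these differences in the spread of the members was not tested.

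**Figure D4:**
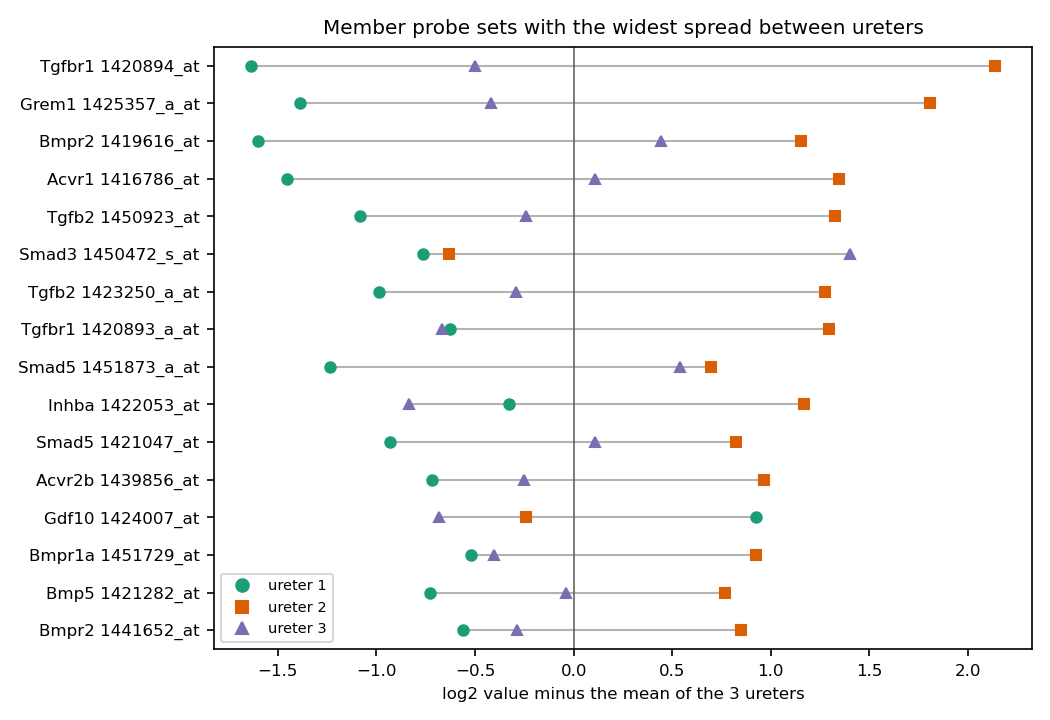
Log2 value of each ureter minus the mean of the 3 ureters (x axis, quantile-normalized) for the 16 member probe sets with an SD of at least 0.7 between ureters (y axis, widest at the top). Ureter 2 (squares) is highest in 14 of the 16 probe sets, and ureter 1 (circles) is highest for Gdf10.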

How the data were processed

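Arrays of 3 ureter samples and 1 reference were analysed. The authors deposited 1 linear intensity for each probe set and array, made with GCOS per the submitters' processing notes; each array had a mean of 1500 after trimming 2% at each end, and no source used here states the background correction. The arrays' medians spanned 1.05 on the log2 scale, so intensities were quantile normalized, 12.23 (percentile 10 over all values) was added, and log2 was taken; on this scale the folds of dim probe sets are understated. From the 45101 probe sets, the 64 controls and then the dimmest 40% by the mean of the 2 group means were left out (27022 tested). The comparison used limma 3.58.1 in R 4.3.3 (lmFit, and eBayes with an intensity trend; the 2 residual degrees of freedom come from the ureters), with two-sided p-values that were Benjamini-Hochberg adjusted across every tested probe set; the single reference was assumed to vary like the ureters. The script was tested on simulated data. Depth does not apply to arrays, whose number limits the precision. A gene was read at its brightest tested probe set, named from the platform annotation. Background was the highest of 27 unspiked bacterial probe sets on each array; a fold is given as "at least" where every array of the dimmer group was at or below it, using that level as the floor. Promoter windows came from RefSeq. All members could be named. Of the other pathway genes, the 8 largest differences past the threshold and the 3 smallest were, and a few more beside the promoter windows. The members and lists were chosen with earlier results of these data known. Alternatives were the deposited scaling, median centring, offsets of 1 and 50, no filter, probe sets averaged, no trend, and leaving out each ureter.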

Additional observations from a re-analysis of the deposited data

How the results depend on the processing

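No alternative reversed a member that had passed. With the deposited scaling the sign turned for Tgfb1 (-0.20), Smad4 (-0.034), Ccn2 (0.09) and Acvr1c (-0.69), and with median-centred arrays for Bmp7 (0.34), Acvr2b (0.17), Smad5 (0.485) and Ccn2 (0.82). With probe sets averaged it turned for Tgfbr3 (-0.43), Smad5 (0.195), Ltbp3 (-0.16) and Acvr1c (-2.54), and with an offset of 50 for Acvr1c (-4.03), which was then read at another probe set. Leaving out 1 ureter gave -0.78 to 0.078 for Acvr2b, -0.78 to 0.10 for Smad5, -0.020 to 0.11 for Smad4, -0.295 to 0.19 for Ccn2 and -0.037 to 0.16 for Strap. The median member difference was 0.48 with the deposited scaling, 1.21 with median-centred arrays, 0.49 with an offset of 50, 0.81 with probe sets averaged and 0.50 to 0.57 with 1 ureter left out. The median SD was 0.41 with median-centred arrays, 0.33 with probe sets averaged and 0.17 to 0.30 with 1 ureter left out. Members called higher numbered 2 without the filter, 0 without the trend and 0 to 5 with 1 ureter left out. Over all genes those counts were 226, 122 and 32 to 513. Members called lower numbered 0 with median-centred arrays, 0 without the trend and 0 to 1 with 1 ureter left out, and over all genes 541, 440 and 216 to 777 were. Other pathway genes called higher numbered 0 without the trend and 0 to 8 with 1 ureter left out, and those called lower 4 with an offset of 50 and 1 to 2 with 1 ureter left out. Except where stated, the cause was not tested. No paired analysis was possible because the reference is a single array. Tgfb1 and Inhba lie near background, which limits what their values can show. The same holds for Grem1 in ureters 1 and 3. It also holds for the pool's values of Smad6, Smad7, Chrd and Bmpr1b (246.96 to 293.4, with background at 187.7).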
